A study of Mus musculus with 26 samples.

Results

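This account follows 9 early response genes, Egr1, Egr2, Egr3, Ier2, Ier3, Klf2, Klf4, Klf6 and Klf10, out of 55416 genes in the 2 deposited count tables. They were chosen by name, with earlier results of these data known and no threshold on a measured value. Each of the 9 symbols matched a single Ensembl gene. All mice were C57BL/6 and had received B16F10 melanoma cells through a vein, so that every library, the untreated ones included, came from an animal bearing lung metastases. The groups were whole lung (5 untreated and 5 propranolol libraries), lung monocytes isolated by fluorescence-activated sorting (4 and 4) and lung CD4 T cells isolated with magnetic beads (4 and 4). Propranolol is a beta-adrenergic receptor blocker. Its dose, route and timing, the ages and sexes of the mice, and how long each material was handled before lysis are not stated in the labels. Nor do the labels state that each library is another animal; p-values therefore measure only the spread between these libraries, which may be technical.

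Immediate early genes are transcribed within minutes of a signal, from promoters that are already poised, without new protein synthesis. Egr1, Egr2 and Egr3 encode zinc finger transcription factors reached through the MAP kinase pathway and serum response factor, and EGR2 and EGR3 are known in T cells for restraining activation downstream of the antigen receptor. KLF2 and KLF4 are Krüppel-like factors that keep endothelium quiescent under flow, and KLF2 keeps resting T cells in circulation through the exit receptor S1PR1 and is known to fall when T cells are activated. Ier2 and Ier3 are short early response genes, Ier3 being a regulator of survival and of ERK signalling. Many of these genes are also known to respond to tissue dissociation and cell handling.

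Libraries held between 17625672 and 48306925 counts in genes, and all 9 genes were counted in all 26 libraries. Defining markers were set against each label. The libraries labelled CD4 T cells had Cd4 at 640 to 649 CPM (counts scaled to a common library total) untreated and 393 to 528 CPM treated, with Cd8a at no more than 15.9 CPM. Plasma cell markers were high there, with a summed level of 9015 to 9310 CPM untreated and 4645 to 8745 CPM treated. The 9 T cell genes summed to 2664 to 2675 CPM untreated and 2422 to 2678 CPM treated. The name CD4 T cells below is the label of these libraries and does not assign a change to a cell type. The libraries labelled monocytes contained much RNA of other cells: 17 endothelium genes summed to 9170 to 9372 CPM untreated and 7037 to 7116 CPM treated, against 1403 to 1723 and 1597 to 1969 CPM for 8 monocyte genes. They are therefore called libraries labelled monocytes below. Within that material, replicates 1 and 2 and replicates 3 and 4 of each group were closer to each other than to the rest. Their chi-square per degree of freedom between counts was 3.52 to 5.24. Pairs of untreated CD4 T cell libraries were about as close, at 4.84 to 7.07. Treated CD4 T cell libraries 3 and 4 were at 5.46, and the other treated pairs at 37.1 to 139. Whether close libraries are separate animals is not stated for either material.

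Promoter sequences are shown to set the members' changes beside the motifs of signal-dependent factors. RefSeq promoter windows (mouse build GRCm38.p6) were present for 5 of the 9 genes, and the 250 bases before the transcription start were searched on both strands for the CArG box bound by serum response factor, the full cAMP response element TGACGTCA, its half-site TGACG and the MEF2 site. Windows for Egr2, Klf2 and Klf4 are printed 5′ to 3′ on the strand of the gene. Capitals mark every match found, and CGTCA is the half-site on the opposite strand. The Egr2 window is 1 of 3 overlapping windows, of 5 in all, that hold the same matches, chr10:67537619-67537868 on the plus strand; the Klf2 window is chr8:72318812-72319061 on the plus strand and the Klf4 window is chr4:55532476-55532725 on the minus strand.
Egr2: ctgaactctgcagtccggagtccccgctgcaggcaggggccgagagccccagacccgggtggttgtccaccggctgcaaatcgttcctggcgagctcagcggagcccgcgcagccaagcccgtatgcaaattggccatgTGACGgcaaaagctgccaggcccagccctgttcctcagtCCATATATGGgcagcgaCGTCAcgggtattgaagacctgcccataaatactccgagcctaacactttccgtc
Klf2: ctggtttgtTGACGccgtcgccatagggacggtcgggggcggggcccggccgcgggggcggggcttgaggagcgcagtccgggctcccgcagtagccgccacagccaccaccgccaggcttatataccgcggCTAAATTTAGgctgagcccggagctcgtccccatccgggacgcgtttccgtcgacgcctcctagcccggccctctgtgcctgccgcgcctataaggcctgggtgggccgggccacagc
Klf4: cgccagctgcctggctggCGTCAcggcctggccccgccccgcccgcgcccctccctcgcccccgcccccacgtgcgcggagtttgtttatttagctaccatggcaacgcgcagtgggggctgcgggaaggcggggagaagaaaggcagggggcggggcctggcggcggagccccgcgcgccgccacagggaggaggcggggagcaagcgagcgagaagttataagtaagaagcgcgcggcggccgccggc

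In Egr2 the CArG box CCATATATGG lay 72 to 63 bases before the start, between half-sites at 111 to 107 and 55 to 51 bases. A CArG box was present in 1.47% of 32817 promoter windows of the same length. Klf2 held the MEF2 site CTAAATTTAG 118 to 109 bases before its start, a motif found in 2.92% of windows, and a half-site 241 to 237 bases before it. Klf4 held a half-site alone, at 232 to 228 bases, and half-sites occurred in 17.7% of windows. None of the 4 motifs was found in the windows of Ier3 and Klf6, and no window held the full cAMP response element, which 1.55% of all windows did. A match describes letters in a window and not binding.

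**Figure D1:**
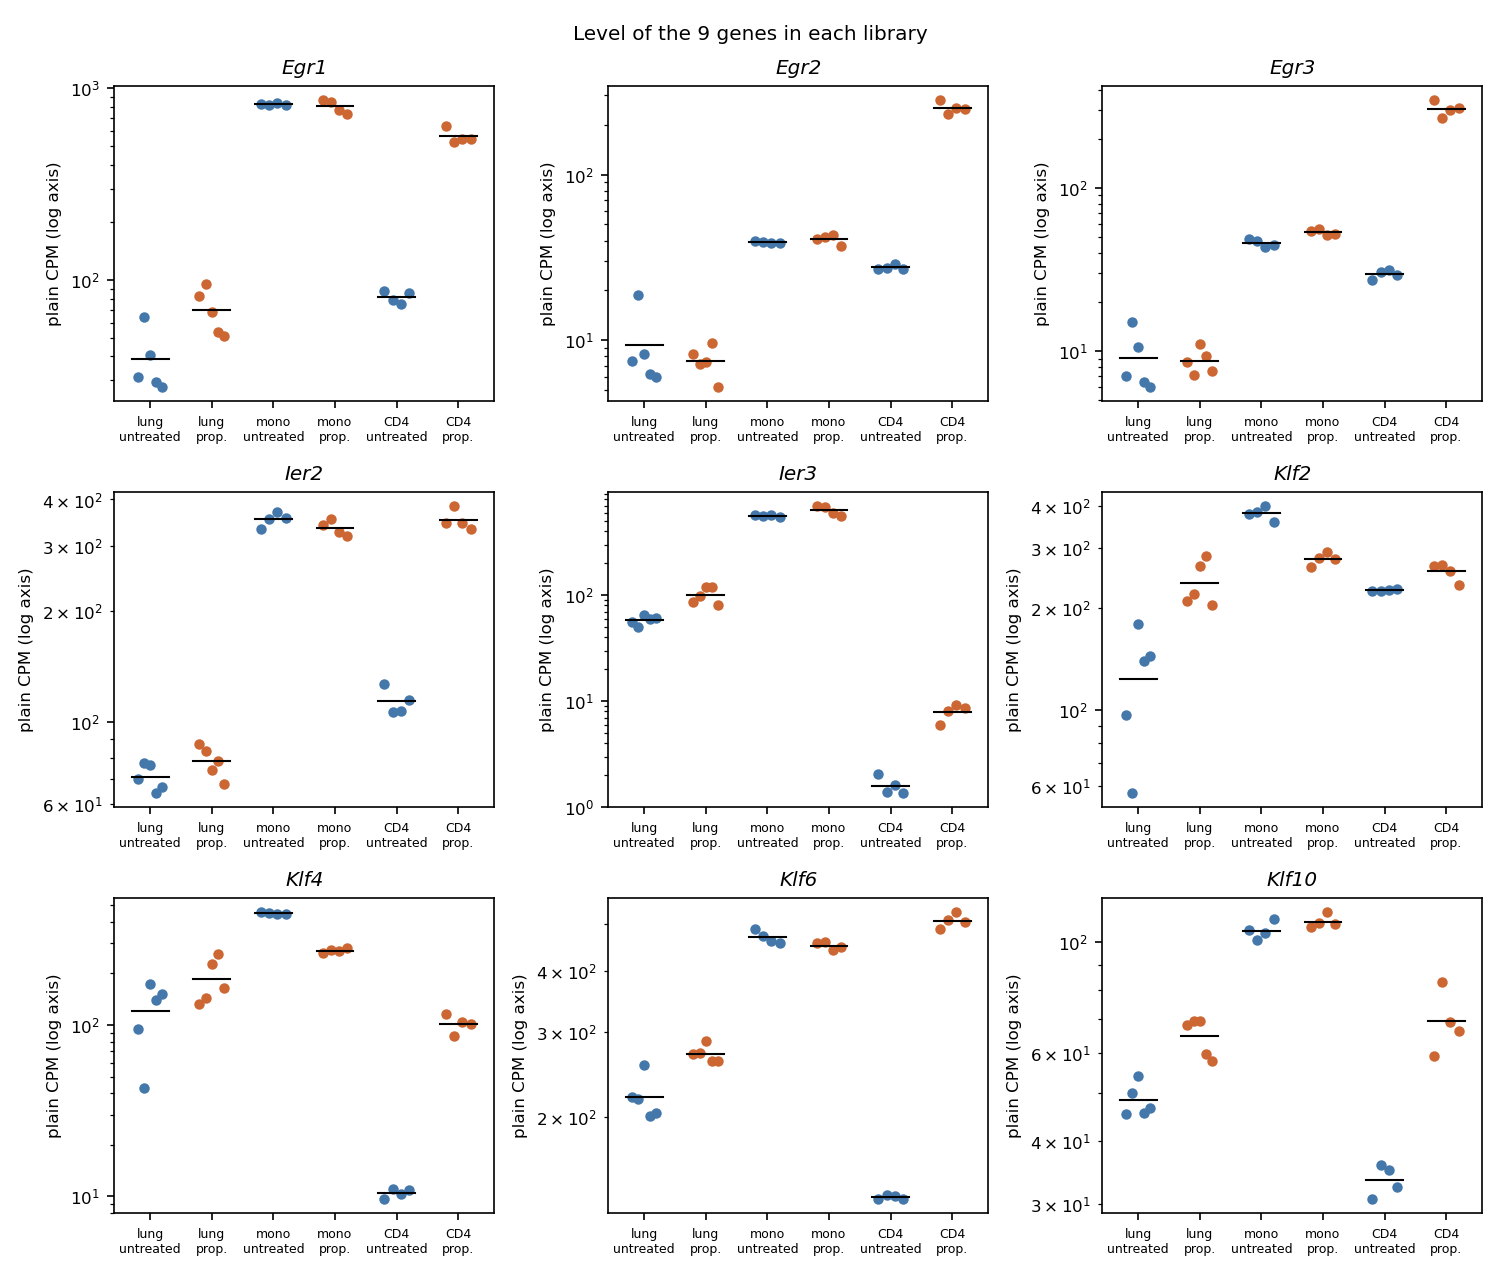
Each panel shows 1 gene; points are libraries (blue untreated, orange propranolol), the bar is the group mean, and the vertical log axis is plain CPM (scaled to the library total alone). In the 4 treated CD4 T cell libraries Egr2 was at 231 to 281 CPM against 26.8 to 28.7 CPM untreated, whereas the treated and untreated lung libraries overlapped for that gene.

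In the libraries labelled CD4 T cells all 9 genes were higher with propranolol. For each gene the lowest treated library exceeded the highest untreated one. The rise ran from 1.49-fold for Klf2 to 13.5-fold for Egr3, with a median log2 change of 2.72 over the 9 genes against -0.04 over all 16550 genes tested. The threshold was an adjusted p of 0.05 in edgeR's quasi-likelihood test with Benjamini-Hochberg adjustment over all genes tested, which also holds for each comparison below. Changes were widespread in this comparison: 30.1% of genes tested were called higher, and 27.9% were higher without overlap between the groups, so the direction is set against that background and the size against the median above. Values per library in the next paragraphs are CPM scaled by trimmed mean of M values (TMM) within the comparison. In bulk libraries, fewer cells of a type and less RNA per cell cannot be told apart.

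The 3 EGR genes and Klf4 had the highest log2 changes of the 9. Egr1, the prototype of the family, stood at 76.6, 68.7, 66.2 and 75.5 scaled CPM in the untreated libraries 1 to 4 and at 724, 608, 621 and 622 in the treated ones. Its log2 change was 3.17 ± 0.08 (SE; adjusted p = 5.3e-11 by edgeR's quasi-likelihood test). Treated library 1 stood above the other treated libraries. Egr2 went from 23.6, 24.03, 25.2 and 23.5 scaled CPM untreated to 320, 267, 289 and 285 treated, a log2 change of 3.59 ± 0.07 (adjusted p = 1.5e-11, edgeR). Egr3 went from 23.9, 26.7, 27.4 and 25.7 to 394, 309, 346 and 353 scaled CPM, a log2 change of 3.75 ± 0.09 (adjusted p = 3.0e-11, edgeR). Egr2 and Egr3 thus lay within a narrow range untreated and moved together, with library 1 the highest and library 2 the lowest of the treated group in both. By size of log2 change Egr3 was gene 156, Egr2 gene 177 and Egr1 gene 247 from the top of the 16550 tested.

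The IER genes started from very different levels. Ier2, an early response nuclear protein, stood at 111, 93.1, 94.0 and 100 scaled CPM untreated and at 393, 442, 396 and 378 treated, and its log2 change was 2.02 ± 0.08 (adjusted p = 1.1e-09, edgeR). Ier3 was barely counted in untreated CD4 T cells, with 1.78, 1.20, 1.40 and 1.19 scaled CPM from 36, 43, 57 and 44 counts. It reached 6.83, 9.23, 10.5 and 9.84 scaled CPM in treated libraries, from 222 to 310 counts, for a log2 change of 2.72 ± 0.21 (adjusted p = 4.6e-07, edgeR). Both genes were higher in every treated library than in any untreated one, yet Ier3 stayed far below its level in the other materials.

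The KLF genes split by size of change. Klf4, a factor linked to quiescence that is low in T cells, stood at 8.43, 9.63, 9.02 and 9.59 scaled CPM untreated and 132, 99.7, 119 and 115 treated. Its log2 change of 3.66 ± 0.10 (adjusted p = 8.4e-11, edgeR) placed it gene 164 from the top. Klf6, a widely expressed early response factor, went from 119, 121, 121 and 119 scaled CPM to 558, 587, 605 and 576, a log2 change of 2.28 ± 0.05 (adjusted p = 3.0e-11, edgeR). Klf10, a TGF-beta inducible factor, went from 26.8, 31.3, 30.7 and 28.3 to 67.4, 95.9, 79.0 and 75.7 scaled CPM, with treated library 1 the lowest here, and its log2 change was 1.44 ± 0.11 (adjusted p = 4.0e-07, edgeR). Klf2 moved least: 196, 196, 198 and 199 scaled CPM became 304, 308, 295 and 266, a log2 change of 0.57 ± 0.06 (adjusted p = 6.6e-06, edgeR). With plain library totals, under which the median of all genes moved to -0.42 and 26.4% of all called genes were higher against 50.2% here, all 9 calls held. Klf2 then had a log2 change of 0.18, its plain CPM being 1.14 times the untreated level.

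**Figure D2:**
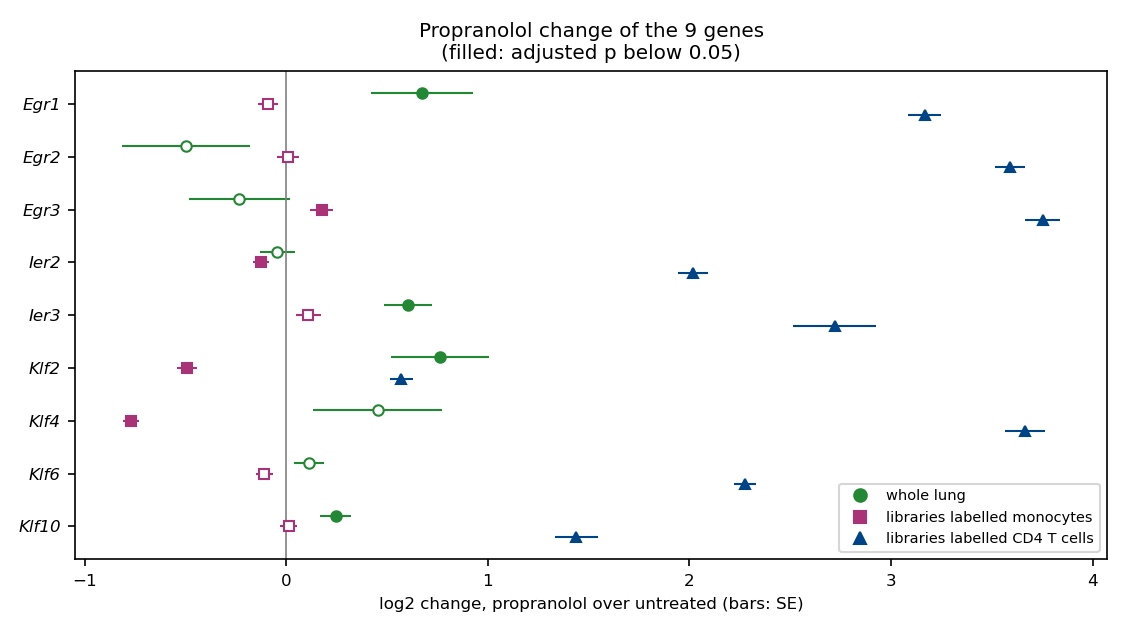
Points give the log2 change, propranolol over untreated, of each gene in each material, with the standard error as a bar; filled points passed an adjusted p of 0.05 and open ones did not. The CD4 T cell points lie between 0.57 (Klf2) and 3.75 (Egr3), while the lung points lie between -0.50 (Egr2) and 0.76 (Klf2) and those of libraries labelled monocytes between -0.77 (Klf4) and 0.18 (Egr3).

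Genes related to the members were read from lists chosen by name, with earlier results of these data known. Their counts are therefore descriptions. Of 20 other early response genes, 20 rose in CD4 T cells and 0 fell, with a median log2 change of 3.07. Nr4a3 and Nr4a1, orphan nuclear receptors induced by antigen receptor signalling, had the smallest p in the list. Nr4a3 went from 32.1 ± 1.84 to 4478 ± 528 scaled CPM (SD, n = 4 libraries each) and Nr4a1 from 82.7 ± 2.71 to 3504 ± 343 scaled CPM, log2 changes of 7.12 and 5.41. The NAB corepressors that EGR proteins induce and bind also rose, Nab1 by 1.88 ± 0.06 and Nab2 by 1.48 ± 0.07 on the log2 scale (SE), among 3 of 3 tested EGR partners. Both other IER genes rose, Ier5l by 3.88 ± 0.19 and Ier5 by 1.46 ± 0.08. Among 10 tested other KLF genes 7 rose and 1 fell: Klf9 rose by 2.02 ± 0.09 and Klf7 by 1.04 ± 0.07, and the erythroid factor Klf1 had a log2 change of -1.29 ± 0.25. The upstream lists moved in both directions, with 1 of 6 serum response factor genes higher (Elk4, 0.57) and 1 lower (Mrtfb, -1.13), and 6 of 14 MAP kinase cascade genes higher and 4 lower.

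Lists of known targets did not move one way either. Among genes that KLF2 is known to support in T cells, S1pr1 rose from 281 ± 5.30 to 768 ± 18.6 scaled CPM (SD, n = 4 libraries each), and Itgb7, which encodes an integrin chain, had a log2 change of -0.67 ± 0.05 (SE). Of 6 known EGR2 and EGR3 targets, the ubiquitin ligase gene Cblb rose by 3.14 ± 0.08 and the costimulatory receptor gene Tnfrsf9 by 2.58 ± 0.06, whereas the diacylglycerol kinase genes Dgkz and Dgka had log2 changes of -1.01 ± 0.07 and -0.97 ± 0.13.

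**Figure D3:**
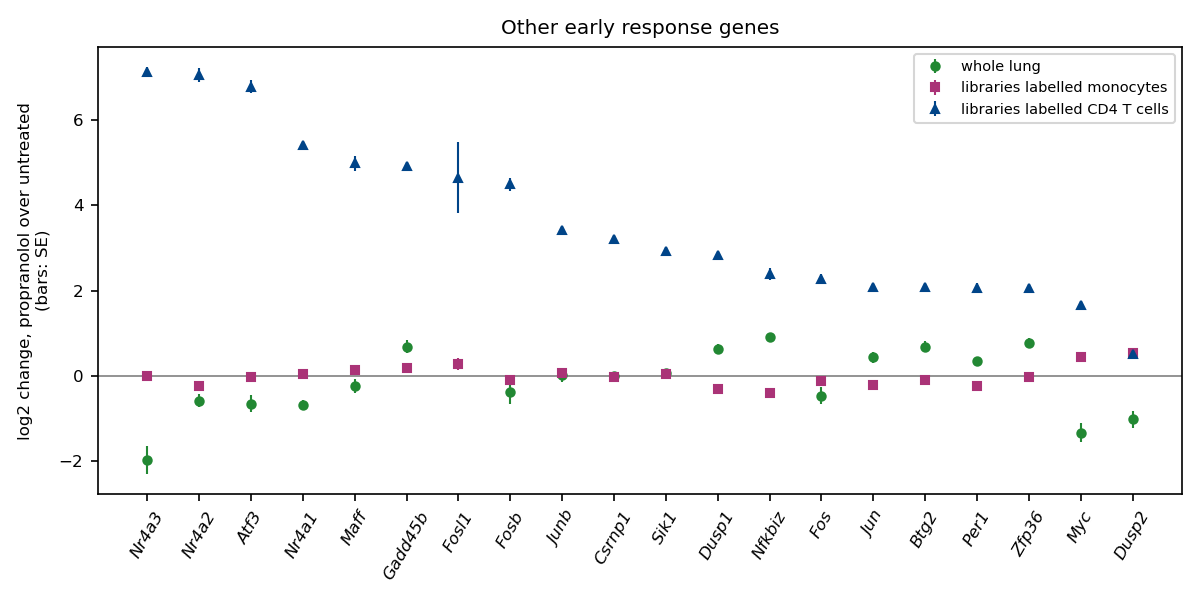
Points give the log2 change, propranolol over untreated, of 20 other early response genes in the 3 materials, with the standard error as a bar and genes ordered by their change in CD4 T cells. In CD4 T cells 20 of 20 rose and Nr4a3 was the highest at 7.12; in whole lung 7 rose and 6 fell of 19 tested, and in libraries labelled monocytes 3 rose and 6 fell.

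Markers of other cells moved with treatment in the CD4 T cell libraries. Sums here are plain CPM, while calls come from the TMM-scaled fit, so the 2 are not on the same scale. The TMM factors were 1.14 to 1.15 untreated and 0.87 to 0.88 treated, which raises treated levels in the fit relative to plain CPM. The summed level of 9 T cell genes was 2664 to 2675 CPM untreated and 2422 to 2678 CPM treated, with 5 called higher, 1 lower and 0 of the 9 at 0. Neutrophil markers went from 152 to 205 CPM up to 508 to 805 CPM, with 8 of 8 called higher, and B cell markers from 173 to 217 CPM up to 459 to 583 CPM, again 8 of 8. Monocyte markers summed to 228 to 277 CPM untreated and 401 to 435 CPM treated, 7 of 8 higher, and Cd14 went from 1.38 ± 0.58 to 66.8 ± 5.14 CPM (SD, n = 4 libraries each). Alveolar macrophage markers went from 39.9 to 43.9 CPM up to 124 to 168 CPM, 2 of 4 tested higher. The part of these cells in the members' rise was not tested. The 17 endothelium genes, 1 of them at 0 in each group, summed to 228 to 239 CPM untreated and 122 to 137 CPM treated, and of 12 tested 2 were called higher and 5 lower. The part of endothelium in the values of Klf2 and Klf4 was not tested. The 8 alveolar type 2 genes summed to 173 to 179 CPM untreated and 84.1 to 98.5 CPM treated, with 4 of the 8, Sftpc included, at 0 in both groups. Of the melanocyte list, 6 of 10 genes were at 0 in both groups.

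In whole lung 4 of the 9 genes were higher with propranolol, 0 were lower, and 5 did not pass. Of 18639 genes tested there, 35.5% were called higher, 35.3% lower and 70.8% in either direction. Lung composition differed strongly between the groups: 10 melanocyte genes summed to 14217 to 21117 CPM untreated and 982 to 9117 CPM treated, and the 17 endothelium genes to 2488 to 4008 and 4478 to 7140 CPM. Among immune lists the treated to untreated ratio of median summed level was 4.72 for neutrophil, 4.35 for B cell, 3.48 for NK and cytotoxic, 3.07 for T cell, 2.50 for monocyte and 1.22 for alveolar macrophage genes. The part of these cells in the members' values was not tested. The called members were Ier3, Klf2, Egr1 and Klf10.

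Ier3 was higher in every treated lung. It stood at 61.9, 54.6, 67.1, 63.5 and 64.1 scaled CPM in untreated libraries 1 to 5 and at 81.7, 92.1, 111, 114 and 74.6 in treated ones, a log2 change of 0.61 ± 0.12 (adjusted p = 0.0011, edgeR). The call held without each library in turn. Klf2 also did not overlap, with 107, 62.0, 185, 148 and 153 scaled CPM untreated and 198, 207, 248, 271 and 189 treated, and a log2 change of 0.76 ± 0.24 (adjusted p = 0.015, edgeR). Non-overlap with treated higher was seen for 23.6% of all genes tested and for these 2 of the 9.

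Egr1 and Klf10 also passed, and each call was lost without some single libraries. Egr1 stood at 34.6, 69.4, 41.9, 31.1 and 29.4 scaled CPM untreated and at 77.8, 89.4, 63.8, 51.0 and 47.1 treated, for a log2 change of 0.67 ± 0.25 (adjusted p = 0.032, edgeR). Untreated library 2 alone reached into the treated range, and without it the log2 change was 0.93. The call was lost without untreated library 1, 3, 4 or 5 or treated library 1, 2 or 3, the highest adjusted p being 0.10 without treated library 2. Klf10 stood at 49.98, 54.1, 55.9, 48.2 and 49.3 scaled CPM untreated and 64.5, 65.2, 65.3, 56.8 and 53.4 treated, a log2 change of 0.24 ± 0.08 (adjusted p = 0.014, edgeR). Its call was lost without untreated library 1 (adjusted p = 0.062), treated library 2 (0.057) or treated library 3 (0.051).

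The other members of the set did not pass in lung. Klf4 stood at 105, 46.2, 178, 147 and 160 scaled CPM untreated and 125, 135, 214, 246 and 152 treated (log2 change 0.45, 95% interval -0.17 to 1.08). Egr2 was at 6.33 to 8.52 scaled CPM in 4 untreated libraries and at 20.4 in untreated library 2, against 4.84 to 9.14 treated, and Egr3 showed the same high library at 16.4. Their log2 changes were -0.50 ± 0.32 for Egr2 and -0.23 ± 0.25 for Egr3. Ier2 (-0.04 ± 0.09) and Klf6 (0.11 ± 0.07) differed by less than the spread between libraries. Untreated library 2 was thus high in the 3 EGR genes, low in Klf2 and Klf4, and had the highest fibroblast marker sum of the untreated lungs, 5769 CPM against 2189 to 3221 CPM in the other 4.

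Scaling to resident lung cells changed these values. With alveolar, endothelial and smooth muscle markers held constant, the median of all genes moved to -0.67, and the members then counted 0 higher and 5 lower: Klf2 had a log2 change of 0.09 (adjusted p = 0.69, edgeR), Ier3 one of -0.11 and Egr1 one of -0.04, none of them called. These values include the shift of all genes. Of all called genes 15.9% were then higher, against 50.1% in the fit above. With the level of the melanocyte genes as a covariate, 0 of the 9 were called, Egr1 having a log2 change of 0.72 (adjusted p = 0.24, edgeR). The melanocyte sums did not overlap between the groups (14217 to 21117 CPM untreated, 982 to 9117 CPM treated). This fit therefore could hardly tell that level apart from treatment, and its share of all genes called is not given here.

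In the libraries labelled monocytes 1 of the 9 genes was higher with propranolol (Egr3) and 3 were lower (Klf4, Klf2 and Ier2), against backgrounds of 14.3% of 18236 genes tested called higher and 16.1% lower. Klf4 fell furthest: 472, 462, 447 and 443 scaled CPM untreated against 255, 268, 269 and 278 treated, a log2 change of -0.77 ± 0.04 (adjusted p = 4.7e-07, edgeR). Klf2 went from 392, 395, 401 and 357 scaled CPM to 256, 275, 289 and 277, a log2 change of -0.49 ± 0.05 (adjusted p = 3.2e-05, edgeR). Neither gene's groups overlapped, and both calls held without each library in turn and with the close library pairs summed. Where lung libraries, which vary more, shared the fit, neither passed (adjusted p = 0.092 for Klf4 and 0.16 for Klf2, edgeR).

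The remaining changes in this material were small. Ier2 had a log2 change of -0.13 ± 0.04 (adjusted p = 0.035, edgeR), from 360 ± 11.2 to 330 ± 12.7 scaled CPM (SD, n = 4 libraries each). Egr3 had one of 0.18 ± 0.06 (adjusted p = 0.036, edgeR), from 46.7 ± 3.28 to 52.7 ± 1.74 scaled CPM. Each of these 2 calls was lost when the close pairs were summed (adjusted p = 0.30 for Ier2 and 0.29 for Egr3), and in a fit with the lung libraries. The Egr3 call was also lost without untreated library 3 or 4 or any 1 treated library, and the Ier2 call without untreated library 2, 3 or 4 or treated library 3 or 4. Klf6 was lower without overlap, 454 to 509 against 438 to 448 scaled CPM, with an adjusted p of 0.069 (edgeR). Non-overlap occurred in 16.8% of all genes with treated lower and 14.9% with treated higher. Egr1, at 819 to 860 scaled CPM untreated and 731 to 844 treated, Egr2, Ier3 and Klf10 did not pass.

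The endothelium list was set beside Klf2 and Klf4, which endothelium is known to express. In libraries labelled monocytes 16 of 17 endothelium genes fell and 0 rose, with a median log2 change of -0.47, and in whole lung 16 of 17 rose and 0 fell, with a median of 0.74. Endothelium was not alone in this: in libraries labelled monocytes the treated to untreated ratio of median summed level was 0.76 for endothelium, 0.63 for fibroblast, 0.67 for platelet and 0.69 for smooth muscle and pericyte genes, and 2.22 for B cell genes. In lung it was 2.17 for endothelium, 2.14 for smooth muscle and pericyte and 2.12 for airway epithelium genes. Expressed per 1000 CPM of summed endothelium genes, Klf2 was 41.0 ± 1.75 untreated and 39.4 ± 1.57 treated in libraries labelled monocytes (SD, n = 4 libraries each), and 39.2 ± 9.46 and 39.1 ± 4.57 in lung (n = 5 each). Klf4 was 48.4 ± 0.16 and 38.4 ± 0.94 in libraries labelled monocytes, without overlap, and 37.9 ± 12.0 and 30.5 ± 7.29 in lung, with overlap. With endothelium genes used for scaling, which moved the median of all genes to 0.48 and the higher share of all calls from 47.1% to 96.5%, Klf2 was at -0.03 (adjusted p = 0.51, edgeR) and Klf4 at -0.31, still called lower. With monocyte genes used instead, the median of all genes was -0.26, 5.83% of calls were higher, and the members counted 0 higher and 5 lower. Of 3 tested endothelial targets of KLF2 and KLF4, 3 fell in libraries labelled monocytes, Thbd by 0.74 and Nos3 by 0.75 on the log2 scale. In lung Thbd rose by 0.92 ± 0.36 and Aqp1 by 0.68 ± 0.13 (SE), 2 of 3 tested genes being higher and 0 lower. The T cell summed level ranged from 82.2 to 490 CPM untreated and from 183 to 923 CPM treated in libraries labelled monocytes, and the 8 monocyte genes counted 4 higher and 0 lower. The part of endothelium, or of any of these other cells, in the members' values was not tested.

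**Figure D4:**
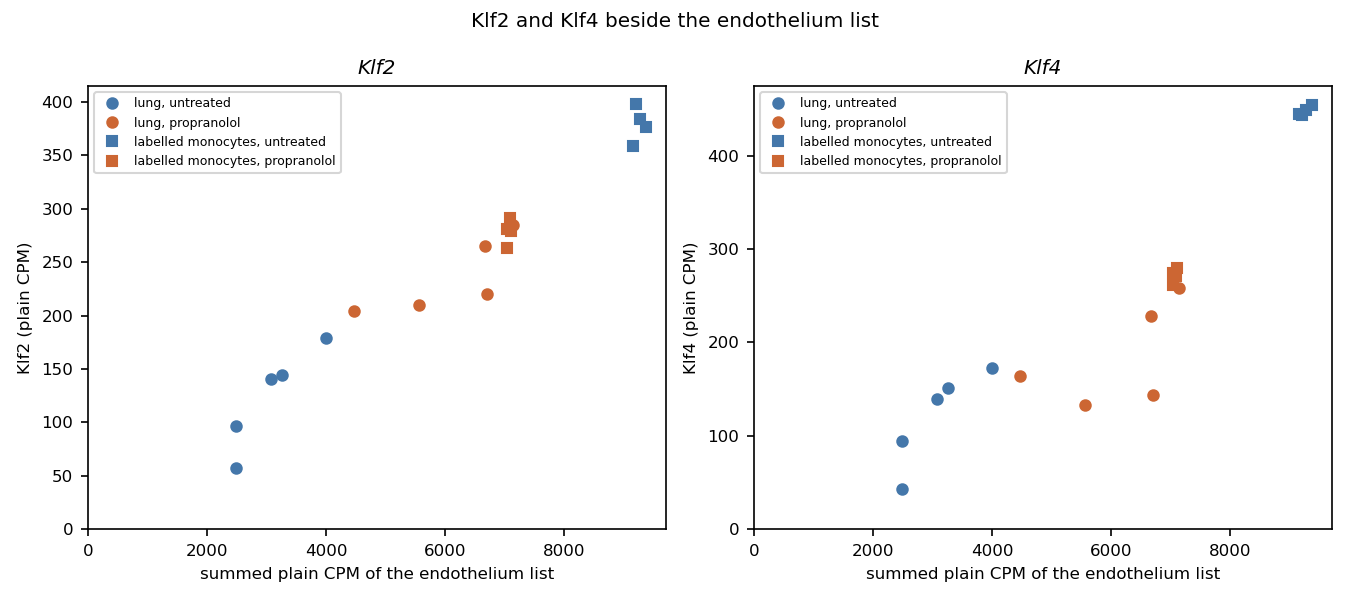
Each point is a library of whole lung (circles) or labelled monocytes (squares), placed by the summed plain CPM of 17 endothelium genes and the plain CPM of Klf2 (left) or Klf4 (right). Untreated libraries labelled monocytes had 9170 to 9372 CPM of endothelium genes and Klf4 at 444 to 454 CPM, treated ones 7037 to 7116 and 261 to 279 CPM.

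The related lists were mixed in these materials. In lung 8 of 11 tested other KLF genes rose and 1 fell, the smallest p among the higher ones being those of Klf11 (0.78 ± 0.07) and Klf13 (0.51 ± 0.11), with Klf16 at -0.34 ± 0.07. In libraries labelled monocytes 0 of 10 rose and 6 fell, those of smallest p being Klf9 (-0.50 ± 0.04) and Klf7 (-0.48 ± 0.05). Nr4a3 and Nr4a1, which rose in CD4 T cells, had log2 changes of -1.97 ± 0.33 and -0.68 ± 0.12 in lung, while Nfkbiz (0.92 ± 0.07) and Zfp36 (0.77 ± 0.11) rose there. The EGR relative Egr4 was lower in lung (-1.90 ± 0.37, from 1.003 ± 0.39 to 0.27 ± 0.11 scaled CPM; SD, n = 5 libraries each), and Srf itself had a log2 change of -0.61 ± 0.10 in lung and 0.25 ± 0.04 in libraries labelled monocytes. The MAP kinase kinase gene Map2k1 was lower in lung (-0.92 ± 0.11), in a list with 3 of 14 higher and 7 lower.

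The size of the propranolol change was then compared between materials with interaction contrasts, which share the groups of the comparisons above. Between CD4 T cells and whole lung 8 of 9 members differed, all more positive in CD4 T cells, against 24.0% of 20832 genes more positive. Differences in log2 change ran from 1.02 ± 0.14 for Klf10 to 3.90 ± 0.38 for Egr2 (SE). Klf2 was the exception, at -0.36 with a 95% interval of -0.96 to 0.23 (adjusted p = 0.33, edgeR), so a difference of that range in either direction was not resolved. Between CD4 T cells and libraries labelled monocytes 9 of 9 were more positive in CD4 T cells, against 23.8% of 20023 genes, from 1.08 ± 0.08 for Klf2 to 4.45 ± 0.11 for Klf4. Between libraries labelled monocytes and whole lung 6 of 9 were more negative in the former, against 32.3% of 20328 genes, with Klf2 at -1.38 ± 0.29 and Klf4 at -1.35 ± 0.38. The median of all genes lay at -0.17 in that contrast, and Egr1 (-0.88), Ier3 (-0.62), Klf10 (-0.35) and Klf6 (-0.34) were the others. The 6 became 3 without untreated lung library 1, 4 or 5, treated lung library 1, untreated library 1 or 2 labelled monocytes, or treated library 1 labelled monocytes. How the materials were prepared cannot be told apart from the materials themselves. The CD4 T cell libraries also came from a separate deposited table, which cannot be told apart from that material either.

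Untreated levels differed between the materials. Preparation and, for CD4 T cells, the deposited table differed as well, and those cannot be told apart from the material. Against whole lung, 9 of 9 members were higher in libraries labelled monocytes, where 31.9% of 18259 genes tested were. Egr1 led with a log2 difference of 4.59 ± 0.25, followed by Ier3 at 3.45 ± 0.08, and Klf6 was the smallest at 1.27 ± 0.09 (SE). Against whole lung, untreated CD4 T cells were higher in 5 members (39.9% of 19078 genes) and lower in 4 (44.0%). Egr3 (1.61 ± 0.25), Egr2 (1.45 ± 0.31), Egr1 (0.97 ± 0.22), Klf2 (0.77 ± 0.24) and Ier2 (0.57 ± 0.08) were higher, and Ier3 (-5.33 ± 0.12), Klf4 (-3.61 ± 0.35), Klf6 (-0.79 ± 0.08) and Klf10 (-0.63 ± 0.09) were lower. Against libraries labelled monocytes, CD4 T cells were lower in 9 of 9 (44.2% of 18763 genes), by up to 8.85 on the log2 scale for Ier3.

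**Figure D5:**
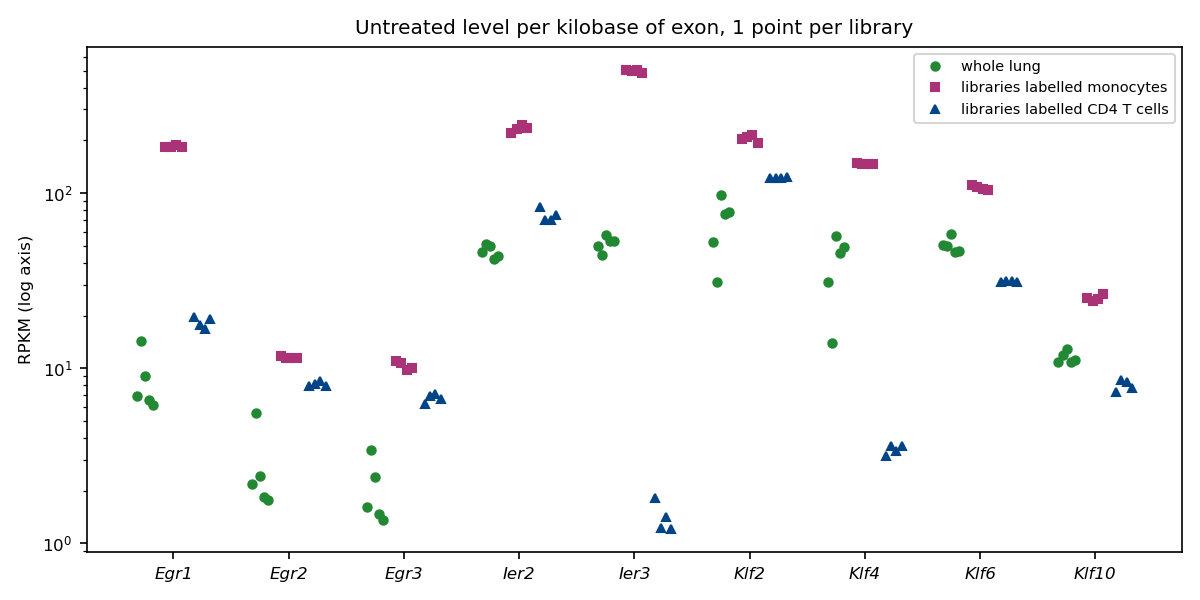
Points are untreated libraries; the vertical log axis is RPKM (CPM per kilobase of exon), with exon length from another build than the counts. In libraries labelled monocytes Ier3 reached 487 to 504 RPKM and Egr2 11.4 to 11.7, and in CD4 T cells Klf2 reached 121 to 123 RPKM and Ier3 1.20 to 1.81.

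Levels can be compared between genes only per length, and RPKM was used for that, with exon lengths from GENCODE M21 on GRCm38 while the counts were made on GRCm39. In untreated libraries labelled monocytes Ier3 was the highest member at 498 ± 7.83 RPKM (SD, n = 4 libraries), followed by Ier2 at 232 ± 9.88, Klf2 at 205 ± 8.92 and Egr1 at 185 ± 1.59 RPKM. In untreated CD4 T cells the order was different, with Klf2 at 122 ± 0.74, Ier2 at 74.7 ± 6.19, Klf6 at 31.2 ± 0.30 and Egr1 at 18.3 ± 1.30 RPKM, and Ier3 last at 1.41 ± 0.28. In untreated lung Klf2 (66.8 ± 25.6), Ier3 (51.6 ± 4.84), Klf6 (50.1 ± 5.01), Ier2 (46.7 ± 3.82) and Klf4 (39.3 ± 16.96, n = 5 libraries) lay within each other's spread.

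By plain CPM over the 6 groups, treated CD4 T cells took the first place for Egr2 (254 ± 20.2 CPM), Egr3 (306 ± 31.7) and Klf6 (508 ± 16.2; SD, n = 4 libraries each). For Egr2 and Egr3 they stood apart from the next group, treated libraries labelled monocytes at 40.8 ± 2.60 and 53.6 ± 2.20 CPM, and for Klf6 they overlapped with untreated libraries labelled monocytes at 470 ± 14.5 CPM. Libraries labelled monocytes held the first place for the other 6 genes. For Ier2, treated CD4 T cells (352 ± 21.96 CPM) overlapped with untreated libraries labelled monocytes (354 ± 15.1 CPM). Treated CD4 T cells kept Klf4 at 102 ± 12.0 CPM, overlapping with neither material labelled monocytes (272 ± 7.60 CPM treated), and Ier3 at 7.96 ± 1.41 CPM was below every lung library.

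Across the 26 libraries the member whose pattern was most like another's was Egr2 with Egr3, with a Pearson r of 0.995 of log2(scaled CPM + 0.5). These correlations are descriptions, since the 26 points share 6 groups and, within a group, its preparation and cell makeup. Among 13935 genes Egr1 was most like Junb (0.989) and Ier2 (0.984), Ier2 most like Csrnp1 and Junb (both 0.997), and Ier3 most like Edn1 (0.992). After the group means were taken out, Klf2 and Klf4 had the highest r of any pair of members, 0.94, followed by Egr2 with Egr3 at 0.86, while Egr1 and Klf4 were at -0.63. Klf4 varied most in lung, with an SD of 51.7 plain CPM untreated and 55.2 treated around means of 120 and 185 CPM. Its SD in the other groups was at most 12.0 CPM, in treated CD4 T cells. The correlations of Klf4 in these deviations therefore rest largely on the lung libraries. Genes nearest Klf2 in these deviations were Ehd4, Tmeff2 and Gata2 (0.97 each), and those nearest Klf4 were Kank4, Arap2 and Fendrr (0.95 to 0.96). Egr1 was nearest Junb (0.94), and Egr2 nearest Pmepa1 (0.93).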

How the data were processed

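RNA was selected by poly(A), prepared with a NEBNext kit and sequenced on an Illumina NovaSeq, per the labels' protocols. The deposited values are raw counts per gene, made by the authors with STAR 2.7.9 and featureCounts of Subread 2.0.3 on GRCm39, per the submitters' processing notes; the labels and notes do not state a strand setting, so reads of a gene and of an overlapping antisense gene cannot be told apart. The 2 tables were joined by gene identifier, and 94.0% of identifiers had a symbol. Counts were tested with edgeR 4.0.16 (quasi-likelihood test, TMM, filterByExpr with a minimum count of 10, Benjamini-Hochberg adjustment over all genes tested, threshold 0.05) in R 4.3.3, with only the groups of a comparison in each fit; all 9 members passed the filter in all 9 comparisons. Standard errors are the log2 change divided by the square root of F. The script was tested on simulated data. Alternatives were DESeq2 1.42.0, limma-voom (limma 3.58.1), other scalings and filters, a replicate block, single libraries left out, and 3 chosen after seeing the data (close monocyte libraries summed, 2 lung libraries left out together, plain library totals for CD4 T cells).

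The members, the 9 lists of related genes and the 16 marker lists were chosen with earlier results of these data known. The text names all members; from each list of related genes, at most the 2 of smallest p in each direction among those called, some of which are not reported here; and for likeness the 3 genes of highest Pearson r, of which some are printed. Single marker genes were named after their values were seen. Promoter sequences are RefSeq's (GRCm38.p6). Sequences were not printed for Egr1, Egr3, Ier2 and Klf10.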

Additional observations from a re-analysis of the deposited data

Results flagged for a closer look

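Within groups of 4 or 5 libraries, the highest or lowest library stood apart from its group in 2 of the 54 groups of values looked at, and chance gives about 1 in 20. Egr2 in untreated lung library 2 was at 20.4 scaled CPM, where the other untreated lungs lay at 6.33 to 8.52. Egr1 in treated CD4 T cell library 1 was at 724 scaled CPM, where the other treated libraries lay at 608 to 622.

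The propranolol change differed between materials by an interaction test in 23 of 27 member contrasts (edgeR's quasi-likelihood test with Benjamini-Hochberg adjustment). The contrasts share their groups, so the 27 are not separate results. Of all genes tested, 32.3% were more negative in libraries labelled monocytes than in whole lung. In CD4 T cells 24.0% were more positive than in whole lung, and 23.8% more positive than in libraries labelled monocytes. For libraries labelled monocytes against whole lung the differences in log2 change were -0.88 for Egr1, -0.62 for Ier3, -1.38 for Klf2, -1.35 for Klf4, -0.34 for Klf6 and -0.35 for Klf10. For CD4 T cells against whole lung they were 2.32 for Egr1, 3.90 for Egr2, 3.80 for Egr3, 1.88 for Ier2, 1.94 for Ier3, 3.04 for Klf4, 1.99 for Klf6 and 1.02 for Klf10. For CD4 T cells against libraries labelled monocytes they were 3.27 for Egr1, 3.59 for Egr2, 3.59 for Egr3, 2.16 for Ier2, 2.64 for Ier3, 1.08 for Klf2, 4.45 for Klf4, 2.40 for Klf6 and 1.44 for Klf10.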

How the results depend on the processing

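In CD4 T cells the 9 calls held under every alternative run in which the gene was tested, and without each library in turn. With a mean of at least 5 CPM required, Ier3 was not tested and 8 remained. Close CD4 T cell libraries were not summed in any alternative. The calls of the CD4 T cell interactions and of the 3 comparisons of untreated level numbered the same under their alternatives. In whole lung the count of 4 became 0 higher and 5 lower with scaling on resident lung cell markers (5 called). It became 0 with the melanocyte covariate, which nearly followed treatment, and 2 to 4 without single libraries. In libraries labelled monocytes the count of 4 became 8 called (7 higher and 1 lower) with endothelium scaling, 0 in a fit with the lung libraries, 2 with the close libraries summed, and 2 to 4 without single libraries. The count of 6 for libraries labelled monocytes against lung ranged from 3 to 6 without single libraries. The share of all genes called under each of these alternatives is not given here, so the changed counts are not read as particular to the members. The cause of these shifts was not tested beyond the construction of each scaling.

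Single members changed sign as follows. A scaling moves all genes alike, so its sign changes follow the shift of the median of all genes, to -0.67 with resident marker scaling, 0.48 with endothelium scaling and -0.26 with monocyte marker scaling, and are not particular to the members. In lung, resident marker scaling gave Egr1 -0.042, Ier3 -0.11, Klf4 -0.23, Klf6 -0.58 and Klf10 -0.45, and the melanocyte covariate gave Klf4 -0.22. Ier2 was at 0.092 with the 5 CPM filter, 0.066 with the monocyte libraries in the fit and 0.039 without untreated 2 and treated 5, where Egr2 was at 0.038 and Egr3 at 0.089. Without single libraries Ier2 ranged from -0.093 to 0.0035 and Egr3 from -0.36 to 0.024. In libraries labelled monocytes, endothelium scaling gave Egr1 0.38, Ier2 0.34 and Klf6 0.36, and monocyte marker scaling gave Egr2 -0.27, Egr3 -0.10, Ier3 -0.16 and Klf10 -0.28. Without single libraries Egr2 ranged from -0.021 to 0.050 and Klf10 from -0.013 to 0.026. For libraries labelled monocytes against lung, Egr2 ranged from -0.051 to 0.65 without single libraries.

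The labels do not state whether libraries of the same replicate number were collected as pairs. Deviations of same-numbered libraries correlated at -0.08 to 0.49 in lung, -0.43 to -0.21 in libraries labelled monocytes and -0.02 to 0.03 in CD4 T cells. These correlations cannot show how the libraries were collected. With the number as a replicate block 4, 2 and 9 members were called in these 3 materials, and 0 of 5, 0 of 4 and 2 of 4 numbers correlated best with their own. The share of all genes called in the block fits is not given here either.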
